A study of Mus musculus with 2 samples.

Results

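The cells described here are mononuclear phagocytes of mouse melanomas, chosen by transcripts of Hes1, Havcr2 and Thbs1 and called Hes1 Havcr2 Thbs1 cells below. A cell was a member when it held at least 1 unique molecular identifier (UMI, 1 counted transcript molecule) of at least 4 of the 8 genes Hes1, Havcr2, Thbs1, Tgm2, Runx3, Met, Gm14005 and Tgfbi, and at least 1 UMI of Hes1 or Havcr2. It also had to hold 0 UMIs of Xcr1, Clec9a, Cdh1, Ace, Mmp13, Lyve1, Cd3e, Ncr1 and Cxcr2, which mark dendritic cells, other macrophages and monocytes, T cells, natural killer (NK) cells and neutrophils. Of the 9798 cells that passed the quality filter, 589 were members, 311 in the control library and 278 in the NK-depleted library. The study profiled live CD45+ leukocytes sorted from Braf-mutant melanomas at day 4 after injection into C57BL/6 hosts, 8 weeks old. In both groups the tumor cells were a CRISPR-made line without Ptgs1 and Ptgs2, the genes of the cyclooxygenases that start prostaglandin synthesis. Sample titles and the series design name this deficiency, whereas the genotype label of both samples reads wildtype tumor cells. Control hosts were untreated, and NK-depleted hosts received 200 µg of anti-NK1.1 (clone PK136) and 30 µg of anti-asialo GM1 on days 0 and 2. Tumors of a group were pooled into 1 library, parental melanoma cells were spiked into both, and no library has a replicate, so no difference below carries a test. Intervals are 95% intervals of counting error only.

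Monocytes enter a tumor from the blood and turn there into macrophages or antigen-presenting cells, losing Ly6c2 and gaining complement C1q and lysosomal genes on the way. Hes1 is a transcriptional repressor and a classical target of Notch signals. Havcr2 encodes an inhibitory receptor of T cells and myeloid cells, and Thbs1 encodes thrombospondin, a matrix protein that can release active TGF-beta from its latent form. Tgfbi is a matrix protein named for its induction by TGF-beta, Tgm2 is a transglutaminase that crosslinks proteins, Runx3 is a transcription factor of the TGF-beta and lymphoid programs, and Met is the receptor for hepatocyte growth factor.

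The members held 1984153 UMIs in the control library and 1744183 in the NK-depleted library, with medians of 5800 and 5562.5 UMIs per cell and a mitochondrial share of 2.93% and 4.03%. Over all passing cells the medians were 4170 and 4893 UMIs. Of 6115 control and 5536 NK-depleted barcodes deposited, 5292 and 4506 passed the filter. After it the libraries shared 5 barcodes, 2 of which belonged to a member in at least 1 library and 0 to a member in both. A rule that counts detected genes favours deep cells. Below 2000 UMIs only 6 of 1208 control cells (0.497%) and 3 of 939 NK-depleted cells (0.319%) were members, against 109 of 1213 (8.99%) and 99 of 1149 (8.62%) between 4000 and 6000 UMIs.

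Because the 8 genes chose the members, their levels are given as a description. Hes1 stood at 103 counts per 1000000 UMIs (CPM) in control members and 143 CPM in NK-depleted members, and at 8.99 and 7.96 CPM in the other mononuclear phagocytes. Those other phagocytes were 2633 control and 2473 NK-depleted cells outside the rule with at least 4 of 8 phagocyte genes, Csf1r, Adgre1, Cd68 and Cd14 among them, and no UMI of 7 genes of lymphocytes, granulocytes and cDC1 dendritic cells. Havcr2 stood at 172 and 188 CPM in members, against 22.4 and 15.4 CPM. Thbs1 stood at 1375 and 2233 CPM in members and at 897 and 977 CPM in the other phagocytes, but phagocytes with Ly6c2 and little C1q also held 1128 and 1637 CPM. Tgfbi was the most abundant of the 8, at 2556 and 2970 CPM against 1513 and 1327 CPM. Tgm2 stood at 250 and 388 CPM and Runx3 at 311 and 428 CPM in members, against 110 and 86.1 CPM for Tgm2 and 141 and 122 CPM for Runx3. Met was the weakest, with a UMI in 32 of 311 control members and 54 of 278 NK-depleted members. Its 19.7 CPM in control members (interval 14.0 to 26.9) lay near the 14.2 CPM of the other control phagocytes and below the 28.3 CPM of their Ly6c2 cells, so Met did not mark the members in that library. Gm14005, a non-coding RNA gene, stood at 62.5 and 78.0 CPM against 23.3 and 18.1 CPM.

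**Figure D1:**
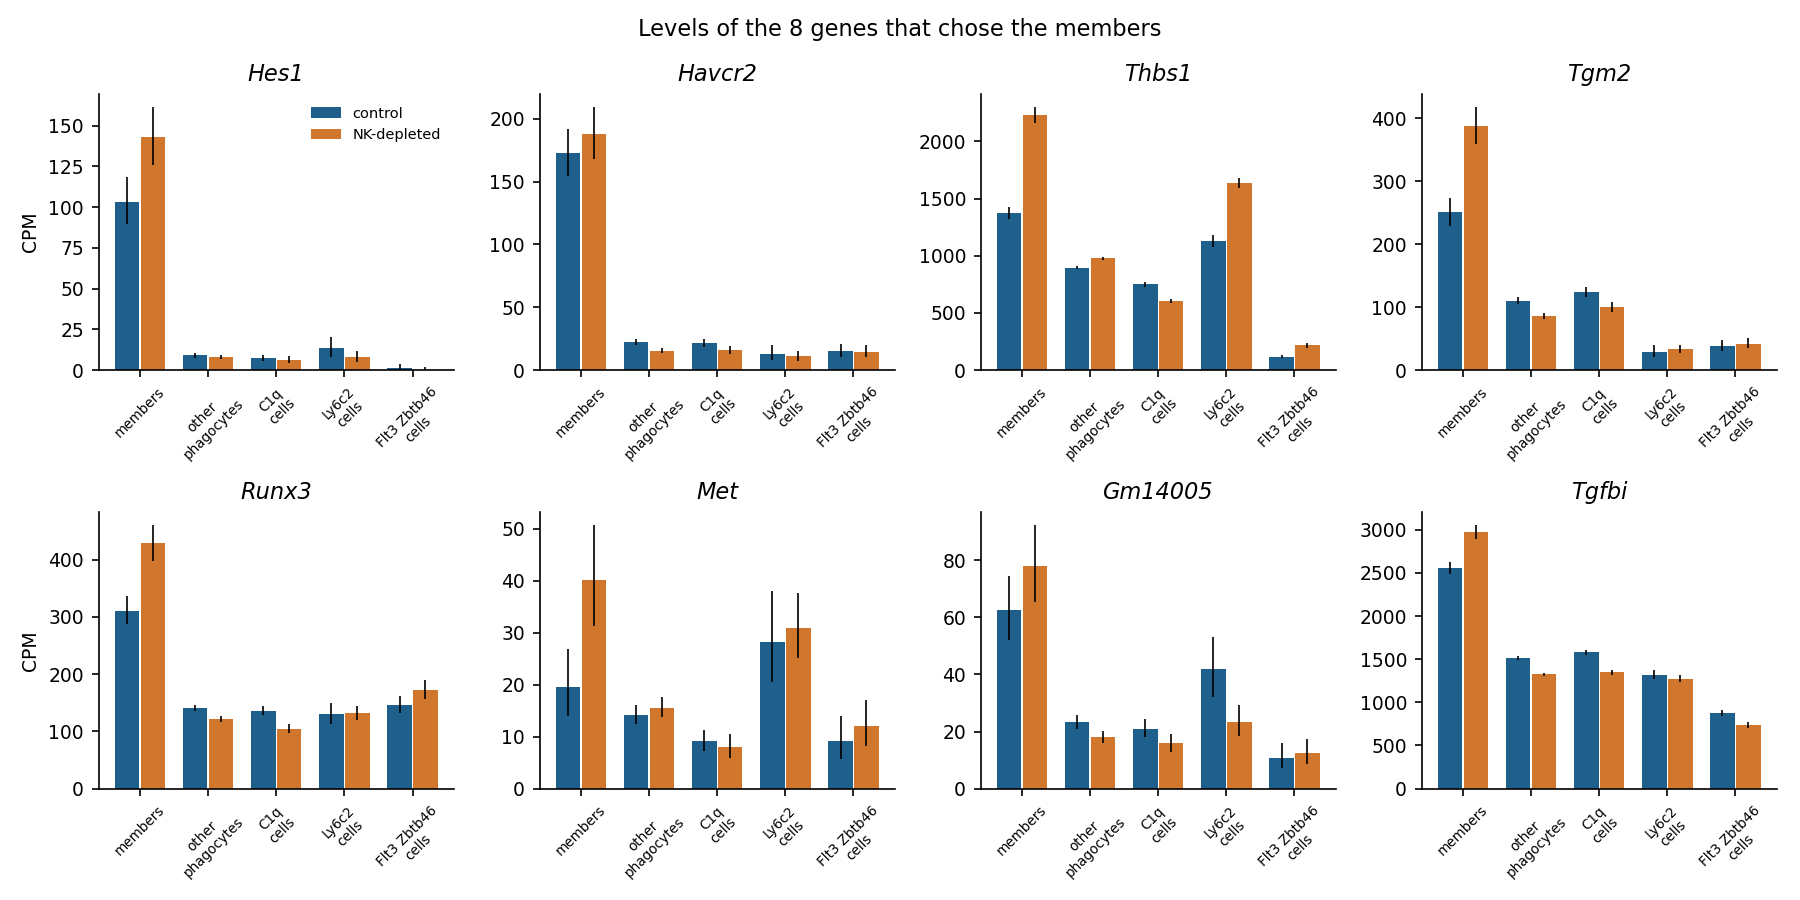
Levels of the 8 genes that chose the members, as CPM (y axis, linear from 0) in members, all other mononuclear phagocytes, their C1q cells and Ly6c2 cells, and Flt3 Zbtb46 cells (x axis), with blue bars for control, orange bars for NK-depleted and lines for 95% counting intervals. Hes1 and Havcr2 stand far above every other group, at 103 and 143 CPM and at 172 and 188 CPM, whereas Met in control members (19.7 CPM) lies below the control Ly6c2 cells (28.3 CPM).

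Most members entered through Havcr2. In the control library 226 members held Havcr2 without Hes1, 58 held Hes1 without Havcr2 and 27 held both. The numbers were 180, 59 and 39 in the NK-depleted library. Members with exactly 4 of the 8 genes numbered 157 and 89, and those with 6 or more numbered 50 and 76. Just outside the rule stood 126 control and 90 NK-depleted cells that had exactly 3 genes and met the other criteria. Between exactly 3 and exactly 4 genes, Tgm2 went from 54.3 to 163 CPM in control and from 42.2 to 139 CPM in NK-depleted cells, while Ccr2, a chemokine receptor of monocytes that the rule did not use, went from 1432 to 1375 CPM and from 1814 to 1755 CPM. C1qa, a subunit of complement C1q, went from 1262 to 1115 CPM and from 845 to 881 CPM over the same step. Tgm2 thus stepped by more than C1qa or Ccr2 at the border, as a gene of the rule. Of 473 control and 411 NK-depleted cells that met the positive criteria, Mmp13 excluded the most (80 and 49), followed by Cdh1 in control (56 and 35), and Ace held 24 and 41.

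The phagocyte identity in the name held. The 12 phagocyte genes summed to 13535.2 CPM in control and 13589.7 CPM in NK-depleted members, and 295 of 311 (94.9%) and 263 of 278 (94.6%) carried at least 4 of the 8 phagocyte genes that define the comparison group. At least 2 of the 6 genes Flt3, Zbtb46, Cd209a, Dpp4, Kmo and Btla, which mark conventional dendritic cells, were found in 4 control members (1.29%) and 10 NK-depleted members (3.60%). Descent from monocytes is not measured by these data. Ccr2 had a UMI in 91.0% and 93.5% of members, and in 52.6% and 30.9% of T cells, which had median depths of 2304 and 2600 UMIs. Ly6c2, the surface antigen of classical monocytes, reached 3 UMIs in 43 control members (13.8%, exact binomial interval 10.2 to 18.2) and 63 NK-depleted members (22.7%, 17.9 to 28.0). The members were therefore not 1 uniform state.

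Among themselves the members ranged from monocyte-like to macrophage-like transcript content. At least 3 summed UMIs of C1qa, C1qb and C1qc were held by 176 control members (56.6%, interval 50.9 to 62.2) and 103 NK-depleted members (37.1%, 31.4 to 43.0). Among the other phagocytes 57.8% (55.9 to 59.7) and 47.1% (45.1 to 49.1) held as many, so the direction was not particular to members. Ly6c2 reached 3 UMIs in 19.2% and 35.7% of those other phagocytes, again in the same direction as in members. Members with neither Ly6c2 nor C1q at 3 UMIs made up 34.4% and 43.9%. UMIs of 4 MHC class II genes, which present antigen to CD4+ T cells, ran from 0 to 478 per 10000 UMIs of a cell in control members with a median of 56.5, and from 0 to 532 with a median of 32.5 in NK-depleted members. Their quartiles were 2.64 and 217 in control and 3.30 and 180 in NK-depleted members, so class II was nearly absent from some members and abundant in others. The other phagocytes had medians of 56.1 in control and 63.4 in NK-depleted cells, so the members lay close to them in control and lower in the NK-depleted library. Members with Hes1 but not Havcr2 held more Ly6c2 (470 and 673 CPM) than those with Havcr2 but not Hes1 (154 and 300 CPM), in both libraries. C1qa ran the other way in control, at 737 CPM with Hes1 alone and 1120 CPM with Havcr2 alone, and was nearly level in NK-depleted members at 667 and 709 CPM.

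The share of these cells was close in both groups. Members made up 5.88% of control cells (interval 5.26 to 6.54) and 6.17% of NK-depleted cells (5.48 to 6.91), a ratio of 0.953 (0.808 to 1.12). Among mononuclear phagocytes they made up 10.6% and 10.1%, a ratio of 1.05 (0.886 to 1.23). When every cell was thinned to 2000 UMIs and shallower cells were left out, 97 of 4084 control cells (2.38%) and 104 of 3567 NK-depleted cells (2.92%) met the rule, a ratio of 0.815 (0.611 to 1.08). A stricter rule of at least 5 of the 8 genes gave 154 control members (2.91%) and 189 NK-depleted members (4.19%), a ratio of 0.694 (0.557 to 0.863), whose interval left out 1.

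The next question was what the rule did not ask for. Genes were compared between members and the other mononuclear phagocytes within each library. A gene was called past the fold when the ratio was 1.5-fold or more in both libraries in the same direction and neither interval held 1. Of 9584 genes with at least 50 UMIs over both sums in each library, 104 were higher in members (1.09%) and 195 were lower (2.03%). The 8 genes that chose the members were included, 7 of them among the higher. Cdh1, Ace, Mmp13 and Lyve1, which members had to lack, were among the lower by the rule. The median log2 ratio of all genes was -0.03 in control and -0.02 in NK-depleted cells. With other phagocytes matched to the members on UMIs per cell, 104 were higher and 194 lower, of which 98 and 185 were in the counts above. Other settings moved the counts, to 570 higher and 355 lower with large cells kept and to 58 and 101 with cells thinned to 2000 UMIs.

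The 20 genes farthest above the other phagocytes, outside the rule, included surface proteins and part of the TGF-beta receptor. F11r, a junctional adhesion molecule, stood at 59.0 and 62.5 CPM in control and NK-depleted members and at 22.2 and 15.3 CPM in the other phagocytes. That was 2.66-fold (interval 2.14 to 3.29) and 4.07-fold (3.22 to 5.12) higher. Tmem119, best known as a microglial membrane protein, stood at 90.7 and 73.4 CPM against 36.8 and 21.2 CPM, and nearly no Ly6c2 cell held it (0.643 and 2.19 CPM). Pmepa1, a TGF-beta target that dampens the pathway, was at 101 and 79.1 CPM against 45.6 and 25.2 CPM. Tgfbr1, the kinase subunit of the TGF-beta receptor, had 334 and 248 UMIs in members, or 168 and 142 CPM against 91.3 and 57.0 CPM. It was found in 174 of 311 and 137 of 278 members (55.9% and 49.3%), against 32.8% and 23.0% of the other phagocytes. Spint1, an inhibitor of the protease that activates hepatocyte growth factor, was at 72.1 and 73.4 CPM against 31.0 and 13.5 CPM. Nt5e encodes CD73, which makes adenosine, and stood at 28.7 and 45.3 CPM against 13.7 and 11.0 CPM.

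The other genes of that group were Sox4, Grasp, Pdgfa, Ndst1, Mfge8, Fmnl2, Gpr171, Ccl17, Pdlim7, Atp2b4, Lpcat2, Retreg1, Pecam1 and Dock5. Their log2 ratios ran from 0.79 for Dock5 in control to 2.55 for Ccl17 in NK-depleted cells. A few cells made up some of them. In members, Ccl17 was found in 7 control and 6 NK-depleted cells, and 5 cells held 98.3% and 99.0% of its UMIs. For Sox4, a transcription factor of progenitor and TGF-beta programs, 5 cells held 46.0% and 90.7%, and for Mfge8, a bridge between phagocytes and dying cells, 63.2% and 43.8%. When the 2% of cells with most UMIs of a gene were left out of both sides, Sox4 and Ccl17 were no longer past the fold, and the remaining 18 of the 20 were. Against C1q cells alone 19 of the 20 were past the fold, all but Pdgfa, whose log2 ratios were 0.79 and 0.58. Against the Flt3 Zbtb46 cells, which are richest in dendritic cell genes, Gpr171 was lower in members, at log2 ratios of -1.15 and -0.81, as were Grasp (-0.78 and -0.74) and Ccl17 (-2.41 and -1.31).

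Among the 8 genes farthest below were a cytokine, a chemokine and a ligand for dying cells. Il10, an anti-inflammatory cytokine, had 4 UMIs in control members and 3 in NK-depleted members, each in as many cells. The other phagocytes held 431 and 837 UMIs, in 4.79% and 7.68% of cells against 1.29% and 1.08% of members. T cells, which can transcribe Il10 themselves, had a UMI in 2.60% and 2.88%, so they give no level of free RNA for it. Whether the few Il10 UMIs of members are background was not tested. The ratio was 0.0738 (interval 0.0200 to 0.19) in control and 0.0325 (0.00670 to 0.0954) in NK-depleted cells. Retnla, a secreted product of macrophages exposed to type 2 cytokines, stood at 40.8 and 146 CPM in members against 1194 and 1352 CPM. Ccl8, a chemokine of resident macrophages, was at 31.8 and 6.88 CPM against 218 and 65.4 CPM, and Gas6, a ligand that tags dying cells for uptake, at 18.6 and 20.6 CPM against 93.0 and 119 CPM. C4b, Lyz1, Ednrb and Fgfr1 completed the 8 lowest, with log2 ratios from -4.23 for Ednrb in control to -1.71 for Fgfr1 in control.

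Part of the comparison lies in the rule, since members had to lack Mmp13, Ace, Lyve1 and Cdh1 and the other phagocytes did not. Without cells that held any of the 9 excluded genes, 1939 and 1906 other phagocytes remained. All 28 genes named above stayed past the fold in the same direction, and 178 genes were higher and 239 lower in members. Ednrb went from -1.93 to -1.30 on the log2 scale in NK-depleted cells. Against C1q cells all 8 lowest genes were lower in both libraries. Against Ly6c2 cells only Lyz1 of the 8 was, and the log2 ratios of Retnla were -0.32 in control and 1.22 in NK-depleted cells and those of Gas6 1.02 and 0.24.

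**Figure D2:**
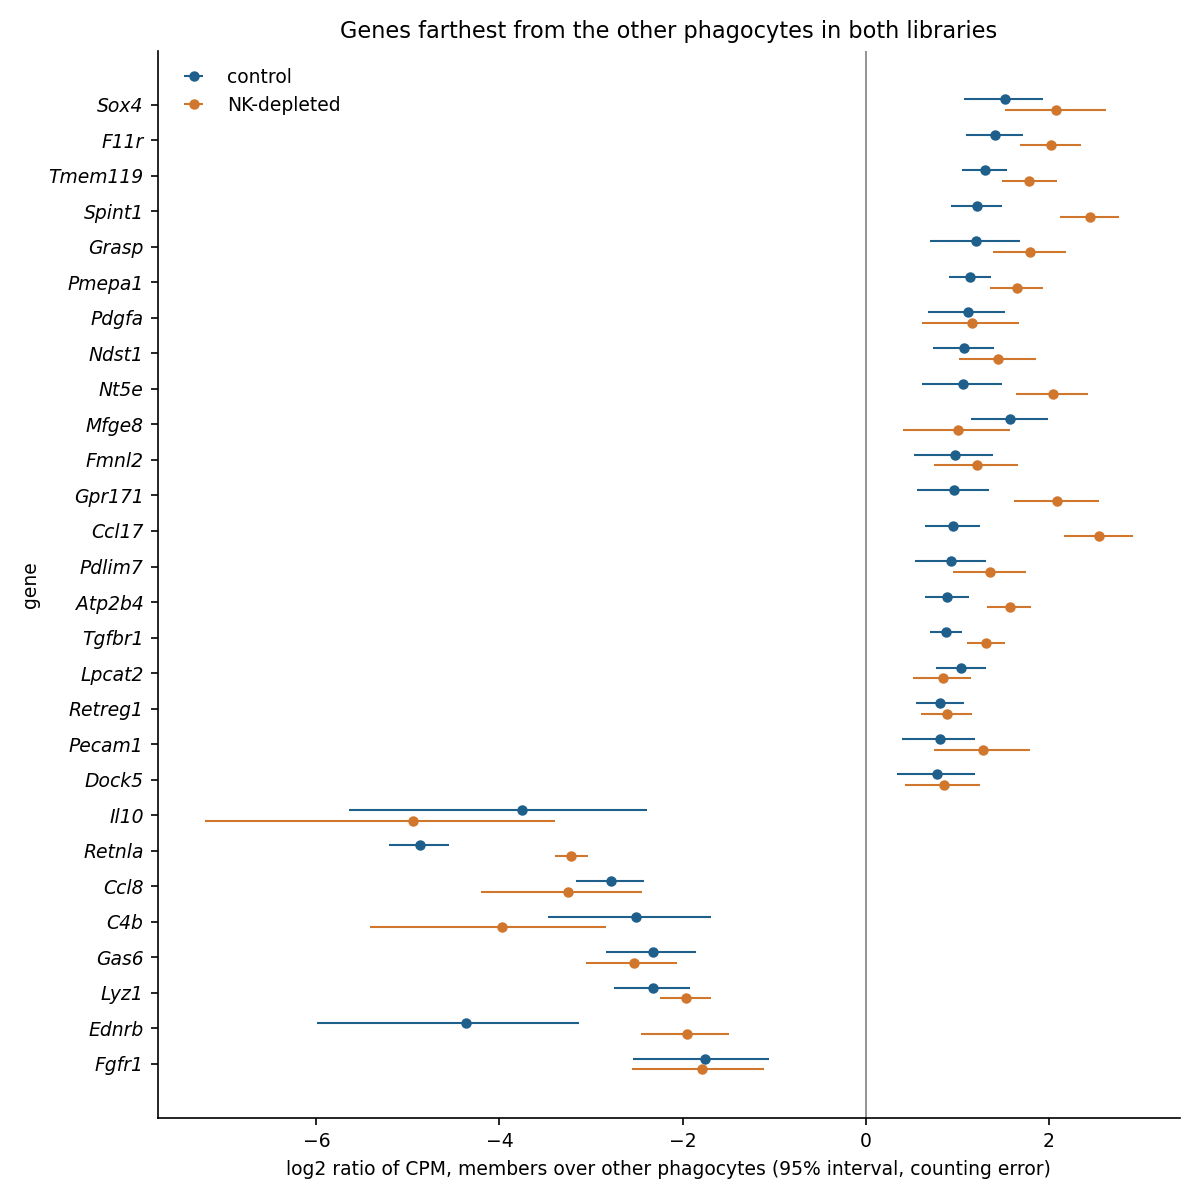
Log2 ratio of CPM in members over the other mononuclear phagocytes (x axis) for the 20 genes highest and the 8 lowest in both libraries (y axis), with blue points for control, orange points for NK-depleted and lines for 95% counting intervals. Every point of the upper 20 lies right of 0 and every point of the lower 8 left of 0, and among the control points Retnla lies farthest left at -4.86. Points are ratios of CPM without the 0.5 UMI added for the log2 ratios in the text, which moves genes of few UMIs such as Il10 slightly.

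Type I interferons switch on antiviral genes through an interferon-stimulated response element in their promoters. In members these genes stood low as a group. Of 28 type I interferon genes compared, 20 were past the fold lower in both libraries and 0 higher, beside 2.03% and 1.09% of all genes. The list's median log2 ratio was -0.70 in control and -1.17 in NK-depleted cells. Isg15, a ubiquitin-like modifier, stood at 99.3 and 75.1 CPM in members against 189 and 137 CPM. Ifit1, which binds foreign RNA caps, stood at 40.8 and 14.9 CPM against 68.2 and 54.6 CPM, and Irf7, the factor that amplifies the response, at 103 and 76.3 CPM against 162 and 180 CPM. Counted per cell, the list took a median of 25.6 of 10000 UMIs in control members and 18.5 in NK-depleted members, against 33.5 and 48.1 in the other phagocytes.

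This result depended on the comparison group. Ly6c2 cells held the most, with medians of 102 and 72.1 per 10000 UMIs. Against them 27 of 27 genes were lower in members, beside 6.81% of all genes, with medians of -1.81 and -1.74. C1q cells held 25.6 in control and 29.4 in NK-depleted cells. Against them 2 of 27 genes, Ifit2 and Ifi44, were lower in both libraries, beside 2.24% of all genes, with medians of -0.28 and -0.62. In control, members and C1q cells thus had the same median. With other phagocytes matched on UMIs per cell, 19 of 28 genes were lower, beside 2.05% of all genes. Ly6c2 was itself lower in members than in the other phagocytes, at 235 and 390 CPM against 433 and 686 CPM, and its part in the interferon values was not tested. For interferon-gamma genes, 5 of 25 were lower (Irf1, Irgm1, Irgm2, Iigp1 and Ccl5) and 1 was higher, Cxcl9, a chemokine for T cells whose UMIs came from 3 control and 2 NK-depleted members. The medians were -0.46 and -0.55. Genes of MHC class I had medians of -0.36 and -0.39 with 0 of 11 past the fold.

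**Figure D3:**
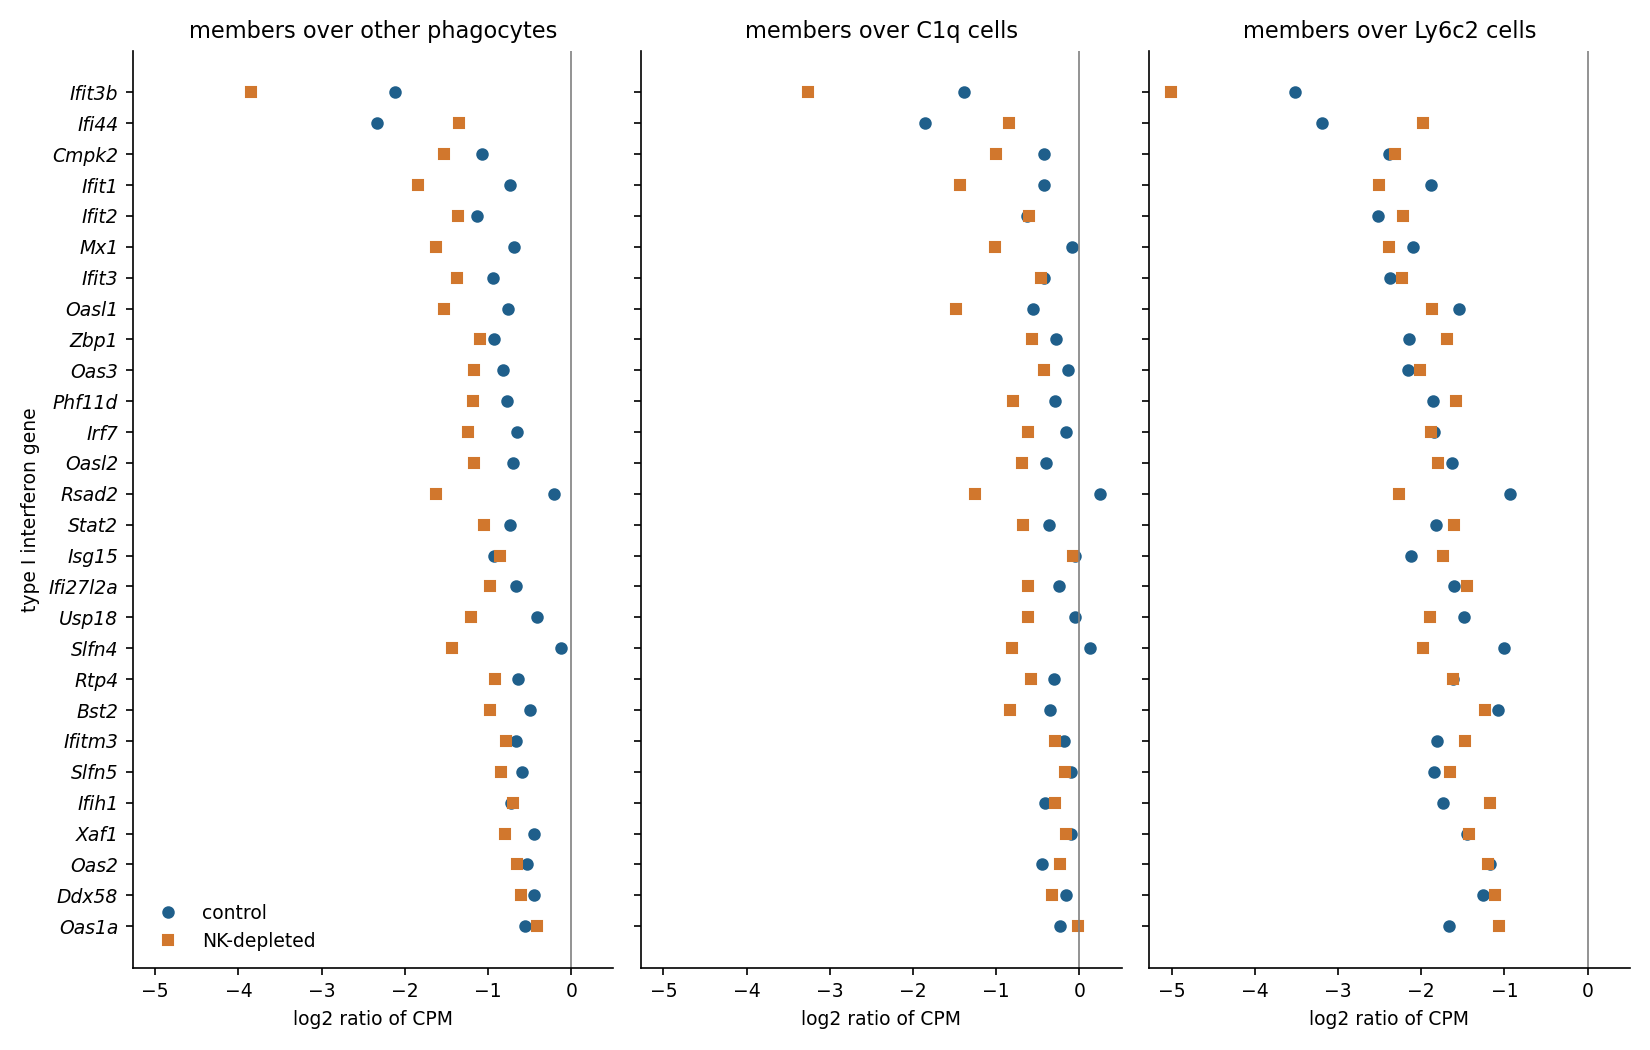
Log2 ratio of CPM of 28 type I interferon genes (y axis) in members over other phagocytes (left), over C1q cells (middle) and over Ly6c2 cells (right), with blue circles for control and orange squares for NK-depleted. The points lie farthest left over Ly6c2 cells, where the medians are -1.81 and -1.74, and nearest to 0 over C1q cells, where they are -0.28 and -0.62.

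The sequences behind this group are shown for Isg15 and Ifit1, the first 2 of the lowered genes in the list's order with a match upstream of the start. The search was for TTTC, any 2 bases and TTTC again, on both strands with overlaps allowed, a core of the interferon-stimulated response element, in the RefSeq promoter windows of build GRCm38.p6 that run from 250 bases before to 50 after each gene's start. It was found for 1079 of 27025 genes (3.99%), for 13 of the 22 compared interferon genes that had a window (59.1%) and for 9 of the 16 lowered ones with a window (56.3%). The 250 bases before the start read as follows, with each match in capitals. For Isg15 the window is chr4:156200819-156201068 on the minus strand and holds 3 overlapping matches, the last ending 56 bases before the start. For Ifit1 it is chr19:34640639-34640888 on the plus strand, with 2 matches, the last ending 75 bases before the start.
Isg15: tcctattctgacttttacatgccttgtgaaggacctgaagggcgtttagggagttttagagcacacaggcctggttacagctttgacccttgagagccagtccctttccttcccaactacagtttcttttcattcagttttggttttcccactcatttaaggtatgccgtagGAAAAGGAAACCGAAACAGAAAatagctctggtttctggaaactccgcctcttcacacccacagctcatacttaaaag
Ifit1: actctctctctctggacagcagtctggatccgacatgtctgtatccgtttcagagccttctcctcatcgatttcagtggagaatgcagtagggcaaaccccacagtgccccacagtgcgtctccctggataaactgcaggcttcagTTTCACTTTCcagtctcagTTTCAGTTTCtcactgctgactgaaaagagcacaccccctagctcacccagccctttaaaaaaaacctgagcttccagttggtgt
A match describes the letters of these windows and no binding of a factor was measured.

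Lists that share a pathway with the marker genes are set beside 1.09% of all genes higher and 2.03% lower. At these shares, 0 calls in a list this short are no result about the list. Of 14 Notch pathway genes, the pathway that drives Hes1 in many cells, 0 were past the fold, with medians of 0.09 and 0.07. Rbpj, the DNA-binding partner of Notch, stood at 600 and 622 CPM in members against 647 and 656 CPM, and Notch2, a receptor, at 70.1 and 84.3 CPM against 97.1 and 121 CPM. Among genes of TGF-beta and thrombospondin, Tgfbr1 was past the fold higher and Tgfbr2, the other receptor subunit, was past it lower. Of 8 genes around Met and plasmin, 0 were past the fold.

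Signals to other cells differed in both directions. Osm, a cytokine of the interleukin-6 family, stood at 332 and 359 CPM in members against 205 and 178 CPM. Cxcr4, a chemokine receptor that retains cells in tissue, stood at 569 and 763 CPM against 355 and 436 CPM, while Ccl5, Ccl6, Ccl7, Ccl8 and Ccl12 were lower. Ccl7, a chemokine for monocytes, stood at 574 and 279 CPM against 1018 and 1031 CPM. Among 17 genes of checkpoints and costimulation, Cd80 and Cd276, which bind receptors on T cells, were higher and Cd40, which receives help from T cells, was lower. Cd40 had a UMI in 6.11% and 9.71% of members against 16.7% and 21.4% of the other phagocytes. Mmp14, a membrane protease of the matrix, stood at 267 and 287 CPM against 172 and 98.7 CPM, and Itgb5, an integrin subunit for uptake, at 158 and 157 CPM against 104 and 81.7 CPM. Vdr, the vitamin D receptor, was higher, and Pparg, a regulator of lipid genes, was lower. Il1b, a cytokine of inflammatory monocytes, stood at 2023 and 2706 CPM against 1466 and 1559 CPM, which was under the fold in control. For 24 genes of hypoxia and glycolysis the medians were 0.31 and 0.59 with 0 past the fold.

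The main comparison of the study was between control and NK-depleted tumors, and it was made here within the members. Of 6873 genes with at least 50 UMIs over both sums, 261 were 1.5-fold or more higher in control with an interval without 1 (3.8%) and 399 were lower (5.81%). The median log2 ratio of all genes was -0.08. Centred on that median the numbers were 358 higher and 265 lower, so the balance of the directions depended on the scaling. Calls fell in several lists, among them macrophage, type I interferon and lysosomal genes toward control and monocyte genes toward NK-depleted members. Counts for these are given below. Of 22 genes of chemokines and their receptors, 7 were higher in control members and 2 lower (Ccl22 and Ccl24). The same list in the other phagocytes had 11 of 26 higher and 2 lower.

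The genes farthest apart were named only where the direction and the fold held without the 5 cells with most UMIs in each library. Pf4, a chemokine of platelets and macrophages, had 4126 UMIs in control members and 1375 in NK-depleted members, 2079 against 788 CPM, a ratio of 2.64 (2.48 to 2.81). It was found in 52.1% and 34.5% of members and in 10.4% and 3.60% of T cells. The level of Pf4 in T cells was 382 and 53.8 CPM, which differed between the libraries in the same direction. T cells were chosen by T cell genes alone, so these UMIs can come from free RNA or from doublets, which were not told apart. Gpnmb, a glycoprotein of lipid-laden macrophages, stood at 62.5 against 21.2 CPM, Ltc4s, which makes leukotriene C4, at 53.4 against 16.6 CPM, and Srxn1, an antioxidant enzyme, at 67.5 against 23.5 CPM. The interferon genes Ifit1 (40.8 against 14.9 CPM) and Rsad2 (191 against 71.1 CPM) were in the same group, with Mrps36, Cxcl1, Ly6a and Adap2. For Rsad2, 5 cells held 64.7% and 52.4% of the UMIs. All 40 UMIs of Cxcl1, a neutrophil chemokine, in NK-depleted members came from 4 cells, so leaving out 5 cells could not undo its call. In the other phagocytes, their Ly6c2 cells and C1q cells, and Flt3 Zbtb46 cells, Cxcl1 was past the fold the other way, lower in control.

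Chil3, a lectin of monocytes and alternatively activated macrophages, led the genes lower in control, with 182 UMIs in control members and 944 in NK-depleted members. That was 91.7 against 541 CPM, a ratio of 0.169 (0.144 to 0.199), and it was found in 13.8% and 39.9% of members, against 1.56% and 2.88% of T cells. Hp, the hemoglobin scavenger haptoglobin, stood at 18.1 against 48.7 CPM and Ifitm6, a gene of monocytes, at 46.4 against 105 CPM. Retnla stood at 40.8 against 146 CPM, but 5 cells held 77.8% and 89.4% of its UMIs, and without C1q cells its direction turned to 0.82 on the log2 scale. Daxx, Lyz1, Gm14548, Cd24a, Ube2j1 and Fam49a made up the rest, with log2 ratios from -1.33 for Daxx to -1.14 for Fam49a. The same contrast in the other phagocytes gave log2 ratios of 1.63 for Pf4, 1.09 for Gpnmb, -1.69 for Chil3 and -0.74 for Hp, and of 0.01 for Rsad2, 0.25 for Ltc4s and -0.18 for Retnla, whose ratios in members were 1.43, 1.67 and -1.83. With 1 library a group, no difference between these groups of cells was tested.

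**Figure D4:**
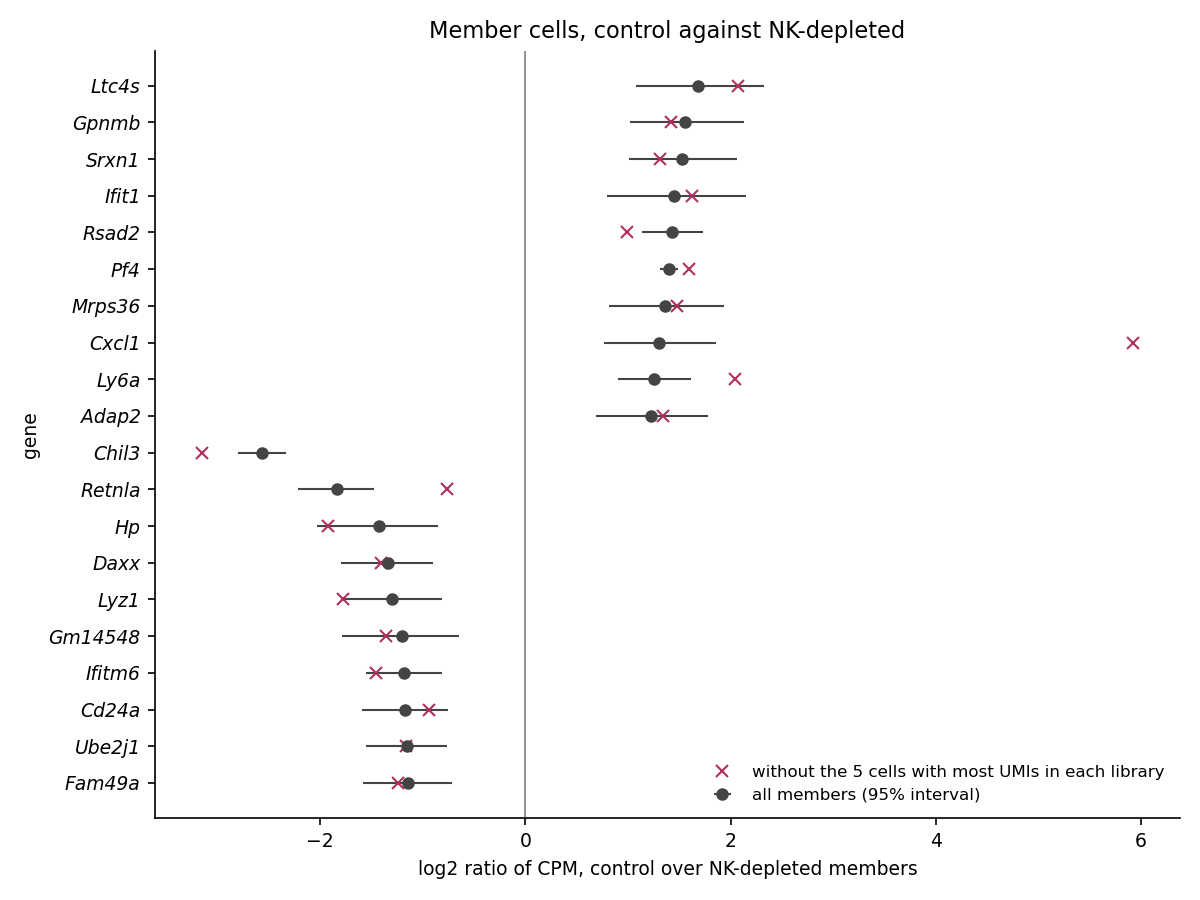
Log2 ratio of CPM in control members over NK-depleted members (x axis) for the 10 genes highest and the 10 lowest (y axis), with grey points and 95% counting intervals for all members and red crosses for the same ratio without the 5 cells with most UMIs in each library. Chil3 lies lowest at -2.56 with all members, and the cross of Cxcl1 at 5.92 reflects 0 UMIs left in NK-depleted members, so it is not a bound.

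By list, 6 of 12 macrophage genes (C1qb, Apoe, Ms4a7, Trem2, Folr2 and Pf4) were past the fold higher in control members and 0 lower, beside 3.8% and 5.81% of all genes, with a median log2 ratio of 0.56. Apoe, a lipid carrier, stood at 3439 against 2120 CPM, and Folr2, a folate receptor of resident macrophages, at 72.1 against 31.5 CPM, with 63.6% of its NK-depleted UMIs in 5 cells. The list summed to 11743.6 and 7563.4 CPM in members and to 2599.8 and 903.6 CPM in T cells, so the transcripts of macrophages found in T cells also stood higher in the control library, and their part in the members' values was not tested. Of 9 monocyte genes, 4 were lower, Ly6c2, Chil3 and Hp among them, and 0 higher, with a median of -0.46. Ly6c2 stood at 235 against 390 CPM. The share of members with C1q was 56.6% against 37.1%, and its part in these values was not tested. The split by C1q that follows uses genes of the macrophage list itself. In members with at least 3 C1q UMIs (176 and 103 cells) the macrophage median was 0.27 and the monocyte median -0.06, and in members with fewer (135 and 175 cells) they were 0.70 and -0.41. In bulk sums of this kind, a different mix of cells and a different level per cell cannot be told apart.

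Interferon genes also stood higher in control members. Of 25 type I interferon genes, 7 were past the fold higher (Ifit1, Ifit2, Ifit3, Rsad2, Usp18, Bst2 and Slfn4) and 0 lower, with a median of 0.37. The count was 3 of 25 without the 5% of cells with the highest doublet scores, 4 of 26 with 3 of the 8 genes asked for and 0 of 4 after thinning to 2000 UMIs. For Ifit2, 5 cells held 59.7% and 68.8% of the UMIs, and for Ifit3 70.5% and 73.7%. Bst2, which tethers budding viruses, stood at 256 against 168 CPM. Of 17 interferon-gamma genes, 3 were higher (Cxcl9, Cxcl10 and Gbp2) and 0 lower, beside 3.8% and 5.81% of all genes, with a median of 0.24. All UMIs of Cxcl9 came from 3 control and 2 NK-depleted members, and 5 cells held 49.4% of the control UMIs of Gbp2, a GTPase induced by interferon. Cxcl10, a chemokine for T cells and NK cells, was found in 25 of 311 control members (8.04%) and 10 of 278 NK-depleted members (3.60%). In T cells 7.81% and 5.04% had a UMI, which free RNA and doublets can both give, so no difference is read from these shares. Of its UMIs in members, 5 cells held 84.8% and 81.6%. In members with C1q the type I median was 0.53 and the interferon-gamma median 0.48, and in the others they were 0.14 and 0.07. For the same contrast the other phagocytes gave a type I median of -0.11 and an interferon-gamma median of 0.48. Their Ly6c2 cells gave a type I median of 0.38, with 5 of 28 genes higher (Isg15, Ifit1, Ifit2, Ifit3 and Oas1a), beside 197 of 7251 over all genes. C1q cells gave -0.07 with 2 of 27 higher, and Flt3 Zbtb46 cells 0.11 with 3 of 27 higher. Higher type I interferon genes in control were thus not particular to members.

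**Figure D5:**
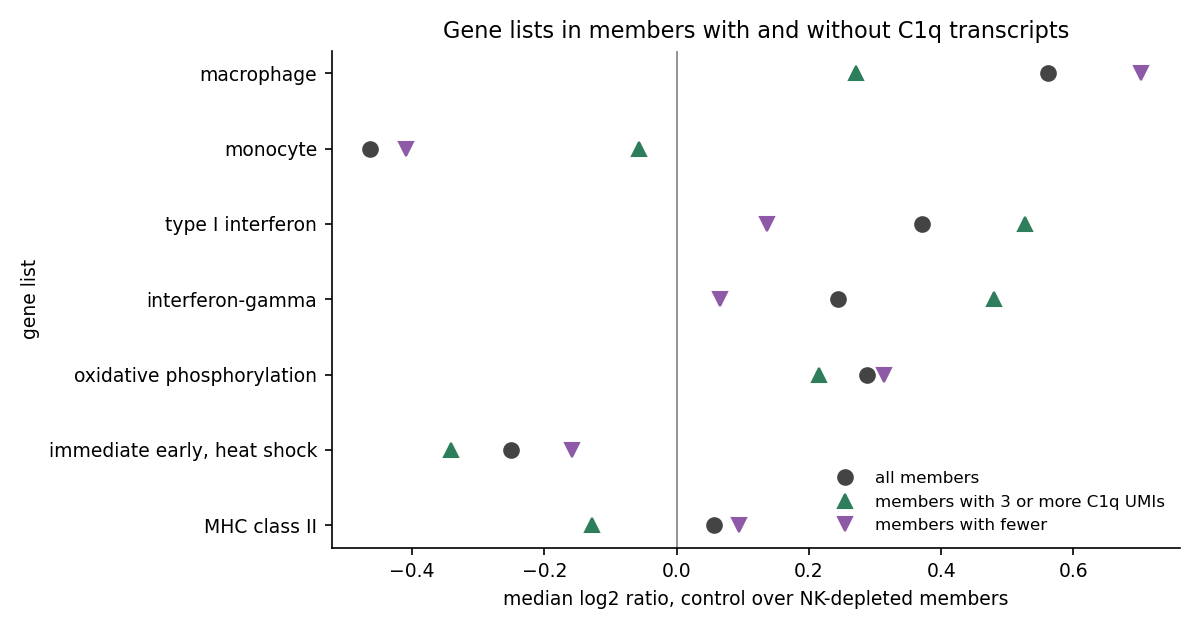
Median log2 ratio of control over NK-depleted members (x axis) for 7 gene lists (y axis), with circles for all members, upward triangles for members with at least 3 C1q UMIs and downward triangles for members with fewer. The monocyte median moves from -0.46 in all members to -0.06 in those with C1q, and the type I interferon median from 0.37 to 0.53.

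Metabolic, stress and signalling lists came next. Genes of oxidative phosphorylation had a median of 0.29, and 31 of 35 lay above 0. In control members 3 of 35 were past the fold higher and 0 lower, beside 3.8% and 5.81% of all genes. The other phagocytes gave a median of 0.33, with 3 of 35 higher, so the direction was not particular to members. The 18 lysosomal and lipid genes had a median of 0.24 with 5 higher (Ctsd, Gpnmb, Fabp5, Apoe and Trem2). Ctsd, a lysosomal protease, stood at 1333 against 841 CPM. Immediate early and heat shock genes, which also respond to tissue dissociation, had a median of -0.25, with Fosl2 and Junb lower, and their sum was 16474 against 20438 CPM. The same median was -0.22 in the other phagocytes, -0.34 in C1q cells, -0.40 in Flt3 Zbtb46 cells and -0.004 in Ly6c2 cells. The direction was thus not particular to members. Of 9 MHC class II genes, 1 (H2-DMb2) was lower, beside 5.81% of all genes, with a median of 0.06. Nr4a1, an immediate nuclear receptor, stood at 408 against 837 CPM and Cebpb, a myeloid factor, at 966 against 1678 CPM, both lower in control. Nr4a1 was also past the fold lower in control in the other phagocytes, Ly6c2 cells, C1q cells and Flt3 Zbtb46 cells, and Cebpb in Flt3 Zbtb46 cells. Ptgs2, the inducible cyclooxygenase, stood at 321 against 603 CPM and Vegfa, a growth factor of vessels, at 261 against 392 CPM. Cd80 and Cd86, ligands of costimulation, were also lower in control, Cd86 at 124 against 187 CPM. Jag1, a Notch ligand, was the 1 gene past the fold among 11 Notch genes, beside 3.8% of all genes, at 30.7 against 18.9 CPM, while Hes1 as a gene of the rule stood at 103 against 143 CPM.

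Transcripts of lymphoid, granulocyte and tumor cells were scarce in members, and those of the dendritic cell lists less so, as in the other phagocytes. Genes of cDC2 dendritic cells summed to 545 and 681 CPM, against 755 and 765 CPM in the other phagocytes. Genes of cDC1 summed to 542 and 570 CPM in members, against 564 and 634 CPM in the other phagocytes. Those of migratory dendritic cells summed to 246 and 255 CPM, against 264 and 187 CPM. A few genes led these sums. In control members Irf8 held 482 and Rab7b 428 of the 1075 UMIs of the cDC1 list, and Cd63 held 436 of the 488 UMIs of the migratory list. Cd209a and Clec10a, lectins of cDC2, and Ccl22, a chemokine of migratory dendritic cells, were past the fold lower in control members, at 6.05 against 48.2 CPM, 42.8 against 75.7 CPM and 4.03 against 44.7 CPM. The 78 UMIs of Ccl22 in NK-depleted members came from 5 cells, and 5 cells held 90.5% of those of Cd209a. The 12 NK genes summed to 38.8 CPM in control and 21.2 CPM in NK-depleted members, with 11 and 3 of the genes detected, and at least 2 of them were found in 3 control members and 1 NK-depleted member. The T cell list summed to 3.02 CPM in control and to 0 UMIs in NK-depleted members, B cell genes to 73.6 and 82.0 CPM, neutrophil genes to 70.6 and 83.7 CPM and melanoma and stroma genes to 3.53 and 9.17 CPM. Ncr1 and Cd3e were at 0 by the rule, and Ly6g, Mlana and Epx were at 0 UMIs in both libraries. Cell cycle genes summed to 506 and 505 CPM.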

How the data were processed

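Single-cell 3' libraries (10x Chromium v3) of sorted CD45+ cells were used, 1 per group, grouped by sample title. The authors deposited filtered matrices of UMI counts, and their headers name Cell Ranger 3.0.2. The submitters' processing notes name build mm10. The deposited table of normalized values was not used here. The filter of the study (500 to 15000 UMIs, 200 to 4000 genes, at most 10% mitochondrial UMIs) was applied to the counts.

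UMIs were summed over the members of each library and scaled to 1000000 UMIs. Shares have exact Clopper-Pearson intervals and ratios exact conditional binomial intervals (95%), computed with scipy 1.17.1. Log2 ratios had 0.5 UMI added to each sum. A gene was past the fold with at least 50 UMIs, 1.5-fold or more and an interval without 1. The steps were tested on simulated data.

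The members and gene lists were chosen with earlier results of these data known. Named genes were the 8 of the rule, the 10 highest and 10 lowest between groups and the 20 highest and 8 lowest against other phagocytes, by log2 ratio (against other phagocytes, the smaller of both libraries) with at least 100 UMIs, and leading or called genes of each list. Mitochondrial, ribosomal, Xist and Y genes were left out. C1q cells and Ly6c2 cells were other phagocytes with at least 3 UMIs of 1 marker and fewer than 3 of the other. Flt3 Zbtb46 cells held at least 2 of 6 dendritic cell genes, and T cells at least 3 of 5 T cell genes. Scrublet in scanpy 1.11.5 called 0 control and 3 NK-depleted cells as doublets, too few to be of use, so no cell was removed and the 5% of cells with the highest scores were left out as an alternative. Some genes of the lists are not reported here.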

Additional observations from a re-analysis of the deposited data

How the results depend on the processing

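Leaving out a replicate was not possible with 1 library per group, and no paired analysis was possible because each group has 1 library and no result comes from a test. The ratio of member shares was 0.694 when 5 of the 8 genes were asked for. The type I interferon median (0.37) was 0.16 with 3 of the 8 genes, 0.22 with large cells kept (no upper limits) and 0.22 without the 5% of cells with the highest doublet scores. The monocyte median (-0.46) was -0.61 with 3 of the 8 genes, -0.65 without the highest doublet scores and -0.61 without cells holding transcripts of other types. Thinned to 2000 UMIs, where few genes reached 50 UMIs, 53 genes were higher and 81 lower in control members, with an interferon-gamma median of 0.73 and a macrophage median of 0.67. Centred on the median of all genes, 265 were lower. The remaining alternatives on C1q, comparison groups and excluded genes were chosen after seeing the data. With C1q members alone the medians were 0.48 for interferon-gamma, 0.53 for type I interferon, -0.057 for monocyte and 0.27 for macrophage genes. Without them 162 genes were higher, the medians were 0.065, 0.14 and 0.70 for interferon-gamma, type I interferon and macrophage genes, and Retnla turned to 0.82.

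Against the other phagocytes, 570 genes were higher and 355 lower in members without upper limits, and 58 and 101 after thinning, with 5 type I interferon genes lower. Against C1q cells 2 such genes were lower. Against Ly6c2 cells 449 genes were higher and 452 lower, with Retnla at 1.22 in NK-depleted and Gas6 at 1.02 in control cells. Without the 9 excluded genes 178 were higher. Ccl17 was at -4.41 in control when 5 of the 8 genes were asked for. The causes were not tested. Depth limits genes under 50 UMIs over both sums, for which no call was made.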
